A study of Mus musculus with 4 samples.

Results

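Collagens are the secreted chains from which the fibers, meshes and sheets of the extracellular matrix are built. The 44 mouse genes whose symbols hold Col, a type number, the letter a and a chain number were taken from the 32285 genes counted by scRNA-Seq in dissociated left lung lobes, and all 44 are accounted for here. They were divided into 11 fibrillar chains, 6 type IV chains of the basement membrane, and 27 others. The study compared 4 libraries of male wild-type C57BL/6 mice. Mice were young (2 to 3 months) or aged (22 months), and either received 3 hours of mechanical ventilation at a tidal volume of 20 mL/kg or were naive mice that had no procedure (nonventilated). By the study's methods the tidal volume was capped, so heavier mice received less per kg of body weight. The study reports that aged mice were in general heavier than young ones. Ventilated mice also received ketamine, medetomidine and buprenorphine and breathed oxygen at an end-expiratory pressure of 0, and these cannot be told apart from ventilation itself. A restricted diet is described for the mice without stating an age, and cells were cryopreserved and thawed before capture. Each group was 1 library of cells pooled from 3 mice, so no comparison has a replicate, and every interval given covers counting error only and not the spread between mice.

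The libraries held 40655452 to 45218176 unique molecular identifiers (UMIs) in 3400 to 4497 barcodes, and 2171 to 2976 cells per library passed the filters, 10160 in all. These cells held 169193 collagen UMIs. Across the libraries 23 barcode sequences occurred more than once. Cells were clustered without any collagen gene and named from marker genes, so a class name stands for cells like that type. Every class described had at least 3 of its markers detected, and each of the fibroblast, pericyte and smooth muscle clusters had 6 or more. No collagen was a marker. Levels are given as CPM. This is the UMIs of a gene in a class of 1 library divided by all UMIs of that class and library, multiplied by 1000000. Levels were not corrected for gene length, and its part in comparisons between genes was not tested. Where 4 values are given they are those of the nonventilated and then the ventilated young library, followed by the nonventilated and the ventilated aged library. A 95% interval follows each fold in parentheses.

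The clusters themselves separated by ventilation, and this touches each result below. Alveolar fibroblasts consisted of cluster 5, with 233, 0, 191 and 2 cells, cluster 2, with 7, 445, 2 and 220 cells, and a shallow cluster 10. Cluster 2 had 7 of the 8 alveolar fibroblast markers detected and none among its 10 leading genes, and was led by the stress and inflammatory genes Serpina3n, Cxcl14, Mt1 and Mt2 along with Tnc and Lox. Capillary endothelial cells whose markers best matched general capillaries consisted of cluster 0, with 566, 8, 489 and 59 cells, cluster 1, with 6, 634, 11 and 299 cells, and a shallow cluster 11. Cluster 1 had none of the general capillary markers and 1 lymphatic marker, Lyve1, among its 10 leading genes, so these cells are called by their cluster numbers. Aerocytes, the capillary cells of the thin gas exchange surface, likewise fell mostly into cluster 16 without ventilation and cluster 20 with it, where the chemokine Cxcl10 was among the leading genes. A ratio of ventilated over nonventilated in these classes is therefore a ratio between largely different clusters.

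As background, collagen chains are hydroxylated and glycosylated in the endoplasmic reticulum, wound into helices there, exported, trimmed and then crosslinked. The fibrillar chains, led by types I and III, form the tensile fibers of the airway and vessel sheaths and of the alveolar septa. Type IV chains form the sheet of the basement membrane on which alveolar epithelium and capillary endothelium both rest. Col4a1 and Col4a2 assemble with each other in nearly all basement membranes, whereas Col4a3, Col4a4 and Col4a5 form a second network with a restricted distribution that includes the alveolus. The other types connect fibrils, anchor cells or sit in the plasma membrane.

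The type IV genes lie in head-to-head pairs, and the sequences around their start sites are shown because the results below turn on these genes. In the GENCODE annotation of GRCm38, Col4a1 (chr8:11198423-11312826, minus strand) and Col4a2 (chr8:11312805-11449287, plus strand) overlap at their 5′ ends, Col4a4 (chr1:82448423-82586849, minus strand) and Col4a3 (chr1:82586921-82722059, plus strand) start 72 bases apart, and Col4a6 (chrX:141165403-141474076, minus strand) and Col4a5 (chrX:141475385-141689234, plus strand) start 1309 bases apart. The RefSeq promoter windows below (GRCm38.p6) run 5′ to 3′ on the strand of the gene from 250 bases before to 50 bases after its start. They span chr8:11312777-11313076 for Col4a1, chr8:11312555-11312854 for Col4a2, chr1:82586800-82587099 for Col4a4, chrX:141475169-141475468 for Col4a5 and chrX:141474027-141474326 for Col4a6. Capitals mark the motifs CCAAT and GGGCGG on either strand, which do not overlap each other here.
Col4a1: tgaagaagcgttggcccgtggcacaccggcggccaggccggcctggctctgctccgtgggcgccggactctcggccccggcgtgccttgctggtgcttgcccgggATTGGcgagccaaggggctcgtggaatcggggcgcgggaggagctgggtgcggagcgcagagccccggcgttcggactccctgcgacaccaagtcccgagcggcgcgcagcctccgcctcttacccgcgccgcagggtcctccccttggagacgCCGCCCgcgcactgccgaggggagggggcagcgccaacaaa
Col4a2: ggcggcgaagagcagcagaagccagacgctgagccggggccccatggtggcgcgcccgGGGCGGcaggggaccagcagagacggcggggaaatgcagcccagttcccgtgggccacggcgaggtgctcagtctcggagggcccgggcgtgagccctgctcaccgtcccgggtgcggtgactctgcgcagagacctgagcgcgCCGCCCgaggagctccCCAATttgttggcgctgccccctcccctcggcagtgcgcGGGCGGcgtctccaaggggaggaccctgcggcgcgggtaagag
Col4a4: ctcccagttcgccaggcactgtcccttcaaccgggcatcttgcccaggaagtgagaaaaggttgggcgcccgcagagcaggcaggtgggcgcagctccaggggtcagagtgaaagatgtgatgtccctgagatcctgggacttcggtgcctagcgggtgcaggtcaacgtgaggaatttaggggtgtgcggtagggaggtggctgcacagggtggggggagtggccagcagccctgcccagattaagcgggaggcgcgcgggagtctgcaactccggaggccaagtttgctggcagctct
Col4a5: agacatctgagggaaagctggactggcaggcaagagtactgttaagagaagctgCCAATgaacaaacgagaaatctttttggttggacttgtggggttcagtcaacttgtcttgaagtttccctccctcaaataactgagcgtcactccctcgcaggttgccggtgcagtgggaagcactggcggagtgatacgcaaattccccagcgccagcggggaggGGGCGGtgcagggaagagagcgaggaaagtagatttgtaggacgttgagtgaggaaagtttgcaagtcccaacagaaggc
Col4a6: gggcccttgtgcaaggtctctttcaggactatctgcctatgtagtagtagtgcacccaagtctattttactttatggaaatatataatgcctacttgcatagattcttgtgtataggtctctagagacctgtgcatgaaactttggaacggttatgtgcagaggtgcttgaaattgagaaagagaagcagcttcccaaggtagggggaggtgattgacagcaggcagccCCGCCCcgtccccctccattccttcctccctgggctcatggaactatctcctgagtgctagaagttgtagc
The Col4a1 and Col4a2 windows share 78 bases. Of the members, 35 had at least 1 window and together 38 windows. CCAAT was present in 13 of these 38 and in 37.4% of all 32851 windows of the same length. GGGCGG was present in 23 of 38, or 60.5%, and in 35.7% of all windows. TATAAA was present in 5 member windows and 13.6% of all windows, and TGANTCA in 1 and 7.81%. A match is a description of the letters only.

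Collagens differed in the cells that held them. Of the 44 members, 33 had at least 100 UMIs over all cells and 26 had at least 100 in at least 1 of the 10 compared classes. Another 7 members had 100 UMIs over all cells but not in any compared class (Col5a3, Col6a6, Col7a1, Col8a2, Col9a3, Col11a2 and Col19a1). Of these, Col7a1, the anchoring fibril chain, had 66 of its 185 UMIs in pericytes, and Col19a1 had 77 of its 108 in smooth muscle. The remaining 11 had 1 to 84 UMIs in all (Col2a1, Col6a4, Col6a5, Col9a1, Col9a2, Col10a1, Col11a1, Col22a1, Col24a1, Col25a1 and Col26a1), and they include the cartilage chains Col2a1, Col9a1 and Col10a1. Among them Col26a1 had 13 of its 26 UMIs in lymphatic endothelium and Col6a5 had 12 of its 24 in mesothelial cells. No member was at 0.

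**Figure D1:**
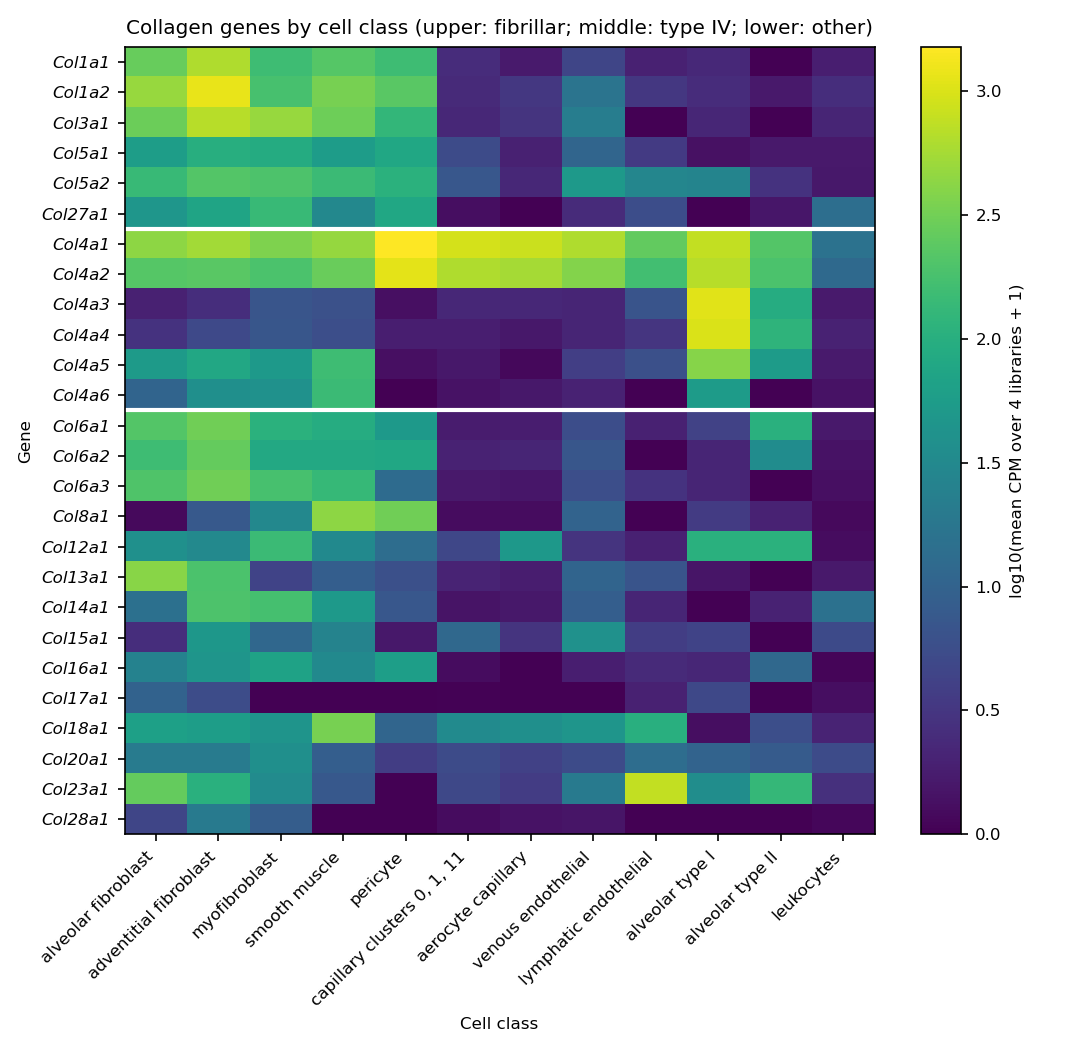
Mean level over the 4 libraries of the 26 collagen genes with at least 100 UMIs in a compared class, as log10(CPM + 1), by cell class. Fibrillar genes (top block) are brightest in fibroblasts, myofibroblasts and mural cells, Col4a1 and Col4a2 (second block) are bright in every class but the leukocytes, and Col4a3 and Col4a4 are bright in alveolar type I cells.

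Adventitial fibroblasts, the cells of the sheaths around vessels and airways, had the highest mean level of Col1a2 at 1175 CPM, Col3a1 at 685 CPM, Col1a1 at 622 CPM and Col5a2 at 209.9 CPM. They were also highest in Col5a1, in all of the type VI chains Col6a1, Col6a2 and Col6a3 (309.6, 267 and 304 CPM), which form beaded microfilaments near the cell surface, in Col14a1 (191 CPM), which coats fibrils, in Col15a1 (46.6 CPM) and in Col28a1 (19.2 CPM). Alveolar fibroblasts, the cells of the alveolar septa, were highest in the transmembrane collagens Col13a1, at 412 CPM against 189 CPM in adventitial fibroblasts, and Col17a1 (9.03 CPM). Their 5 highest members were Col1a2, Col4a1, Col13a1, Col3a1 and Col1a1.

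Myofibroblasts had Col3a1 as their highest member (481 CPM) followed by Col4a1, Col5a2, Col4a2 and Col6a3. They were the class with the most Col12a1 (143 CPM), a fibril-associated chain, and Col27a1 (135 CPM), a fibrillar chain, and also had the highest mean of Col16a1 (67.3 CPM, 69 UMIs) and Col20a1 (37.7 CPM, 25 UMIs). Smooth muscle cells were highest in Col8a1 (427 CPM), a short-chain network collagen of vessel walls, in Col18a1 (329.8 CPM), the basement membrane proteoglycan from which endostatin is cut, and in Col4a6 (144 CPM). Pericytes, which share a basement membrane with the capillary, were highest in Col4a1 (1499 CPM) and Col4a2 (1103 CPM), followed by Col8a1 (308 CPM). Lymphatic endothelial cells were set apart by Col23a1, a transmembrane collagen, at 764 CPM against 267 CPM in alveolar fibroblasts, the next class. Alveolar type I cells, the thin epithelium of gas exchange, were highest in Col4a3 (1078 CPM), Col4a4 (990.5 CPM) and Col4a5 (393 CPM). Col4a3 was 105 CPM in the next class, the 30 mesothelial cells.

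Endothelial classes held few chains. The 5 highest members of the capillary clusters 0, 1 and 11 were Col4a1, Col4a2, Col18a1, Col15a1 and Col5a2, and those of aerocytes were Col4a1, Col4a2, Col12a1, Col18a1 and Col20a1. Venous endothelial cells had Col4a1, Col4a2, Col5a2, Col18a1 and Col15a1, and lymphatic ones Col23a1, Col4a1, Col4a2, Col18a1 and Col5a2. Leukocytes pooled over their classes were used for a background level, although some of these classes held single collagens well above it. Over all leukocyte classes Col4a1 was 10.01, 21.4, 13.01 and 15.3 CPM, Col1a2 was 3.53, 0.844, 1.64 and 0.364 CPM and Col18a1 was 0.471, 2.74, 0.0964 and 0.911 CPM. Interstitial macrophages stood above that level in 2 chains. They held 134, 59.1, 172 and 67.9 CPM of Col14a1 and 58.1, 172, 67.4 and 37.9 CPM of Col27a1.

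Ventilation was compared first for Col4a1 and Col4a2, the pair of chains found in nearly all basement membranes. Both chains were higher with ventilation in both ages in alveolar fibroblasts, where the difference was about 4-fold for Col4a1, and about 2-fold higher in each capillary class. They were also higher in venous and lymphatic endothelium, in adventitial fibroblasts and in myofibroblasts, and by less than 1.5-fold in pericytes, where the level without ventilation was already the highest. In alveolar type I cells, smooth muscle and adventitial fibroblasts the difference was larger in aged than in young libraries.

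**Figure D2:**
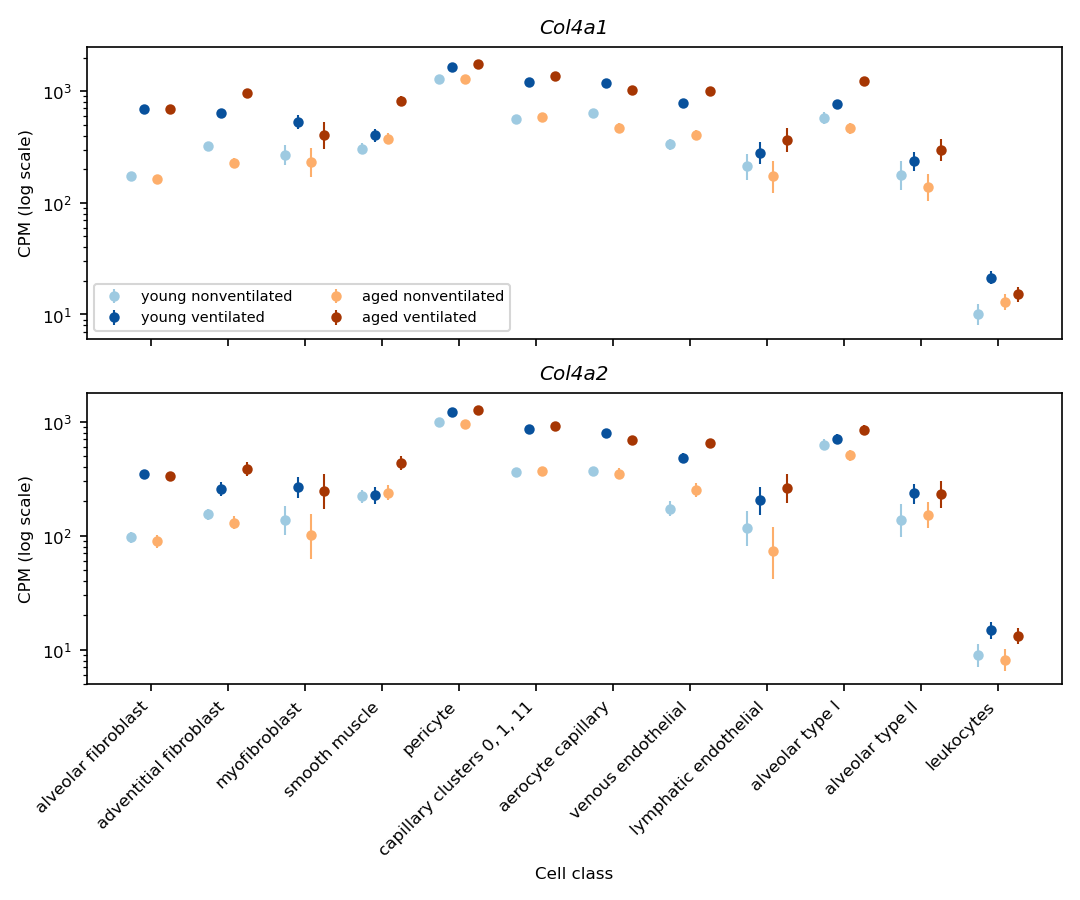
Levels of Col4a1 (top) and Col4a2 (bottom) in CPM on a log axis, by cell class, with 1 point per library and 95% Poisson intervals from counting. In each class other than leukocytes the ventilated point (dark) of an age lies above the nonventilated point (light). In leukocytes, whose points lie lowest, this also holds for Col4a1.

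In alveolar fibroblasts Col4a1 was 174, 698, 164 and 699 CPM. With their 95% Poisson intervals these levels were 174 (161 to 189), 698 (678 to 718), 164 (149.9 to 179), 699 (673 to 726). Both ventilated libraries lay above both nonventilated libraries, and the intervals of the ages overlapped. The ventilated over nonventilated ratio was 4.003-fold (3.68 to 4.37) in young and 4.26-fold (3.87 to 4.70) in aged libraries. Col4a2 was 96.3, 345, 88.9 and 331 CPM, a difference of 3.58-fold (3.19 to 4.03) and 3.73-fold (3.26 to 4.27). One cell gave at most 6.01% of the Col4a1 UMIs in a library. After each cell was thinned to 2000 UMIs, the share of alveolar fibroblasts with a Col4a1 UMI was 25.1, 63.3, 24.6 and 58.6%, against 2.05, 2.57, 1.27 and 1.74% of leukocytes. The shares without thinning were 62.2, 85.02, 60.4 and 77.96% and 6.56, 8.18, 6.38 and 7.75%. Thinning left out 52, 62, 51 and 48 shallower alveolar fibroblasts and 14, 60, 28 and 24 leukocytes, and the median UMIs per cell were 11728, 13537, 11918 and 13372 in alveolar fibroblasts and 10246, 7814, 9386 and 9900.0 in leukocytes.

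In adventitial fibroblasts Col4a1 was 320.3, 639, 228 and 971 CPM, which was 1.995-fold (1.78 to 2.24) higher with ventilation in young and 4.26-fold (3.73 to 4.87) higher in aged libraries. Col4a2 was 154, 256, 130.0 and 385 CPM, 1.66-fold (1.39 to 1.98) and 2.96-fold (2.44 to 3.59) higher. The aged ventilated level was the highest for both chains, though from 35 cells. With the adventitial and alveolar fibroblasts joined, the ratios of Col4a1 were 3.01 (2.83 to 3.21) in young and 3.91 (3.63 to 4.22) in aged libraries.

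Over the capillary clusters 0, 1 and 11, Col4a1 was 569, 1213, 593 and 1355 CPM. The ventilated libraries were 2.13-fold (2.04 to 2.23) and 2.28-fold (2.18 to 2.39) higher. Col4a2 was 364, 854, 365 and 918 CPM, or 2.34-fold (2.22 to 2.48) and 2.52-fold (2.37 to 2.67) higher. At 2000 UMIs per cell a Col4a1 UMI was found in 59.8, 82.7, 59.6 and 82.8% of these cells (unthinned 81.6, 86.1, 80.2 and 86.5%). By cluster, the 59 aged ventilated cells of cluster 0 had 869.5 CPM of Col4a1 against 588 CPM in its 489 aged nonventilated cells, a ratio of 1.48 (1.34 to 1.63). The shallow cluster 11, with 71, 105, 70 and 85 cells, had ratios of 2.75 (1.73 to 4.52) and 3.79 (2.17 to 7.06).

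Aerocytes had 643, 1185, 469 and 1029 CPM of Col4a1, with ventilation ratios of 1.84 (1.70 to 1.996) and 2.19 (1.96 to 2.46). Their Col4a2 level of 370.1, 799, 349.7 and 689 CPM gave 2.16 (1.95 to 2.39) and 1.97 (1.72 to 2.26). In venous endothelial cells Col4a1 was 334, 787, 404 and 996 CPM, a difference of 2.36-fold (2.06 to 2.70) and 2.47-fold (2.19 to 2.79). One cell gave 13.97% of the UMIs in the young ventilated library. Venous Col4a2 was 173, 478, 252 and 652 CPM, or 2.77-fold (2.30 to 3.33) and 2.59-fold (2.22 to 3.03) higher, so capillary and venous classes had both chains higher with ventilation at both ages. Lymphatic endothelial cells, 20 to 31 per library, had 212, 282, 174 and 365 CPM of Col4a1. Its ratio was 1.33 (0.936 to 1.90) in young libraries, an interval that holds 1, and 2.10 (1.39 to 3.21) in aged libraries.

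Pericytes had the highest mean levels of both chains. Col4a1 was 1291, 1662, 1283 and 1759.7 CPM, or 1.29-fold (1.17 to 1.42) and 1.37-fold (1.23 to 1.53) higher with ventilation, and Col4a2 was 995, 1217, 948 and 1252 CPM, or 1.22-fold (1.10 to 1.37) and 1.32-fold (1.17 to 1.50) higher. None of these reached 1.5-fold. Myofibroblasts had 269, 532, 232 and 404 CPM of Col4a1 and ratios of 1.98 (1.53 to 2.56) and 1.74 (1.16 to 2.63), from 16 to 37 cells per library. Their Col4a2 was 137, 268, 101 and 247 CPM.

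In smooth muscle the ratio was larger in aged than in young libraries. Col4a1 was 306, 401, 376 and 812 CPM, 1.31-fold (1.10 to 1.56) higher with ventilation in young and 2.16-fold (1.84 to 2.53) higher in aged libraries, and the 2 intervals did not overlap. Col4a2 was 220.2, 225, 238 and 431 CPM, with a ratio of 1.02 (0.817 to 1.27) in young libraries, whose interval holds 1, and 1.81 (1.47 to 2.23) in aged libraries. Whether the ratios differed by age, here, in type I cells or in adventitial fibroblasts, could not be tested with 1 library per group.

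The remaining type IV chains did not follow Col4a1 and Col4a2. In alveolar type I cells Col4a3 and Col4a4, the chains of the restricted network, were lower with ventilation, and most so in the young library. Col4a5 was lower with ventilation in fibroblasts and in smooth muscle at both ages, and Col4a6 in adventitial fibroblasts and smooth muscle.

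**Figure D3:**
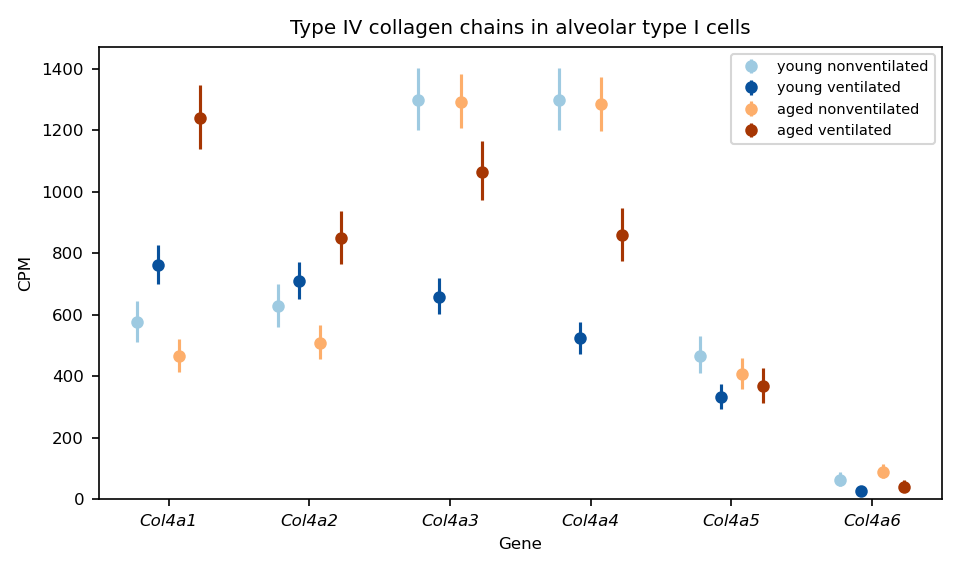
Levels of the 6 type IV collagen genes in alveolar type I cells, in CPM from 0, with 1 point per library and 95% Poisson intervals. Col4a3 and Col4a4 lie near 1290 CPM in both nonventilated libraries and below that in both ventilated libraries, whereas Col4a1 is highest in the aged ventilated library.

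In alveolar type I cells Col4a3 was 1298, 658, 1293 and 1064 CPM, 1.97-fold (1.75 to 2.22) lower with ventilation in young and 1.21-fold (1.08 to 1.36) lower in aged libraries. Col4a4 was 1298, 523, 1283 and 858 CPM, 2.48-fold (2.19 to 2.82) and 1.50-fold (1.32 to 1.69) lower. The nonventilated libraries of both ages were alike within counting error, and both ventilated libraries lay below them. Col4a5 was 467, 332, 406 and 367 CPM, a ratio of 0.712 (0.594 to 0.853) and 0.904 (0.739 to 1.10). Over the same cells Col4a1 was 575, 762, 466 and 1239.9 CPM, or 1.32-fold (1.15 to 1.53) and 2.66-fold (2.31 to 3.07) higher with ventilation, and Col4a2 was 626, 709, 508 and 849 CPM, or 1.13-fold (0.984 to 1.30) and 1.67-fold (1.44 to 1.94) higher. The class had 88, 147, 98 and 82 cells, of which 61, 111, 64 and 63 were in the shallow cluster 13, which was led by Scgb1a1, the secretory product of club cells. In the deeper cluster 24 alone, with 27, 36, 34 and 19 cells, Col4a3 was 1669, 895, 1630.3 and 1510.3 CPM. The aged ratio there was 0.926 (0.823 to 1.04), an interval that holds 1. Col4a3 and Col4a4 were among the 10 leading genes of cluster 24, though no collagen was used to form it.

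Alveolar type II cells, the surfactant-making epithelium, numbered only 11 to 25 per library. They had 119, 68.8, 126 and 55.8 CPM of Col4a3 and 189, 101, 136 and 39.9 CPM of Col4a4, and the Col4a4 ratios were 0.534 (0.349 to 0.816) and 0.292 (0.133 to 0.582). One cell gave 57.1% of the Col4a3 UMIs in the aged ventilated library.

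In smooth muscle Col4a6 was 287, 76.6, 143 and 67.8 CPM. It was 3.74-fold (2.73 to 5.23) lower with ventilation in young and 2.11-fold (1.40 to 3.25) lower in aged libraries, and it was also lower in aged than in young nonventilated cells. Col4a5 in smooth muscle was 203, 91.6, 208 and 107 CPM, 2.21-fold (1.63 to 3.04) and 1.94-fold (1.40 to 2.73) lower. In alveolar fibroblasts Col4a5 was 72.2, 39.6, 69.2 and 27.96 CPM, 1.82-fold (1.53 to 2.17) and 2.47-fold (1.95 to 3.16) lower, and in adventitial fibroblasts it was 138, 25.8, 112 and 42.6 CPM, 5.36-fold (3.44 to 8.80) and 2.62-fold (1.70 to 4.23) lower. Adventitial Col4a6 was 56.9, 11.04, 56.9 and 25.9 CPM, or 5.15-fold (2.63 to 11.5) and 2.20-fold (1.25 to 4.16) lower, from 9 and 14 UMIs in the ventilated libraries. Alveolar fibroblasts had little Col4a6, at 11.3, 6.58, 10.7 and 10.1 CPM. With both fibroblast classes joined, the Col4a5 ratios were 0.393 (0.339 to 0.454) and 0.352 (0.286 to 0.430).

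The fibrillar collagens of the stroma were lower with ventilation, and the size of that difference depended on how fibroblasts were divided. Over both fibroblast classes joined, the sum of the 11 fibrillar chains was 2628, 1383, 1815 and 1268 CPM, 1.90-fold (1.85 to 1.95) lower with ventilation in young and 1.43-fold (1.38 to 1.48) lower in aged libraries. In adventitial fibroblasts alone the sum was 4516, 2014, 2777 and 2182 CPM, 2.24-fold (2.13 to 2.36) and 1.27-fold (1.19 to 1.36) lower. In alveolar fibroblasts alone it was 1479, 1308, 1256 and 1136 CPM, only 1.13-fold (1.09 to 1.17) and 1.11-fold (1.06 to 1.16) lower. Adventitial cells made up 136 of 459, 51 of 585, 115 of 390 and 35 of 339 fibroblasts.

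At the finer clustering resolution of 2.0, adventitial fibroblasts numbered 52, 51, 45 and 31 and alveolar fibroblasts 406, 534, 345 and 308. There the fibrillar sum was 6199, 2014, 3359 and 1947 CPM in adventitial fibroblasts, 3.08-fold and 1.73-fold lower with ventilation. In alveolar fibroblasts it was 2089, 1308, 1596 and 1182 CPM, or 1.60-fold and 1.35-fold lower. The direction was the same in every division, while the size of the difference was not.

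**Figure D4:**
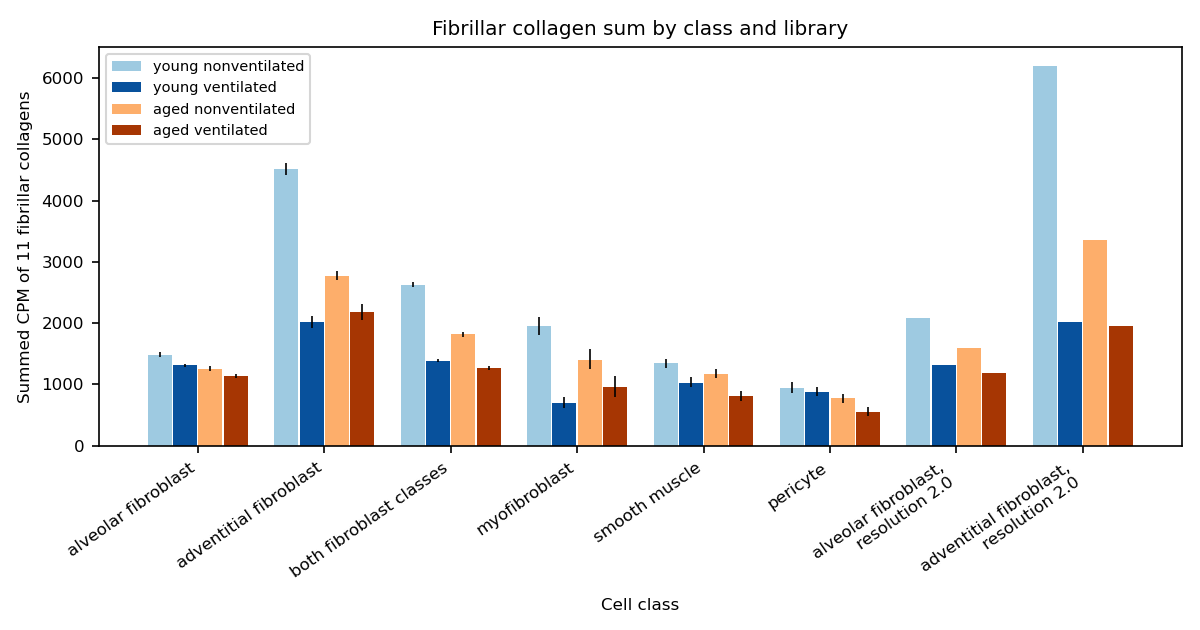
Summed CPM of the 11 fibrillar collagens, with 1 bar per library from 0 and 95% Poisson intervals for the classes at the resolution used throughout. Within each age the ventilated bar is lower than the nonventilated bar in every class and under both resolutions, and the young nonventilated bar is the tallest in each class.

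By gene, Col1a2 in the joined fibroblasts was 1062, 455, 749.5 and 490.5 CPM, or 2.33-fold (2.24 to 2.43) lower with ventilation in young and 1.53-fold (1.45 to 1.61) lower in aged libraries. Col1a1, its partner in type I fibers, was 548, 281, 374 and 298 CPM, or 1.95-fold (1.85 to 2.07) and 1.25-fold (1.17 to 1.35) lower. Col3a1, the chain of thin reticular fibers, was 692, 333, 398 and 263 CPM, or 2.08-fold (1.98 to 2.19) and 1.51-fold (1.40 to 1.63) lower. The young nonventilated library was highest for all of these, followed by the aged nonventilated library. These joined values also carry the different shares of adventitial cells given above. In alveolar fibroblasts alone, none of Col1a1, Col1a2 and Col3a1 was lower with ventilation by 1.5-fold or more at either age. In adventitial fibroblasts the young ratios were 0.514 (0.460 to 0.572) for Col1a1, 0.406 (0.372 to 0.443) for Col1a2 and 0.311 (0.276 to 0.349) for Col3a1, and 1 cell of 136 gave 11.4% of the young nonventilated Col3a1 UMIs.

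Type V chains, on which fibrils of type I start to grow, had other ratios. In alveolar fibroblasts Col5a2 was 117, 195, 113 and 129.9 CPM, 1.66-fold (1.49 to 1.86) higher with ventilation in young and 1.15-fold (0.996 to 1.32) higher in aged libraries. At resolution 2.0 the young ratio was 1.20-fold, under the 1.5-fold threshold. Col5a1 in adventitial fibroblasts was 118, 76.1, 127 and 64.8 CPM, 1.55-fold (1.17 to 2.08) and 1.95-fold (1.36 to 2.87) lower, though the aged log2 ratio turned to 0.23 when each cell was thinned to 2000 UMIs. Col27a1 in alveolar fibroblasts was 56.7, 45.03, 52.5 and 26.1 CPM, 1.26-fold (1.05 to 1.51) lower in young and 2.01-fold (1.55 to 2.62) lower in aged libraries.

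Myofibroblasts had 914, 210.4, 671 and 127 CPM of Col3a1, 4.34-fold (3.35 to 5.71) and 5.28-fold (3.18 to 9.32) lower with ventilation. Their Col1a1 was 311, 48.1, 149.6 and 112 CPM and their Col1a2 was 353, 60.1, 179 and 119.6 CPM, and the young ventilated values rest on 16 and 20 UMIs. In young libraries these were 6.47-fold (3.81 to 11.7) and 5.87-fold (3.65 to 9.94) lower with ventilation. Both, like Col3a1 and Col14a1 there, reached 100 UMIs in the young nonventilated library alone. Their ratios are thus tied to how they were picked. Between the nonventilated libraries the aged one was 2.08-fold (1.39 to 3.20) lower in Col1a1 and 1.98-fold (1.36 to 2.94) lower in Col1a2. Myofibroblast Col12a1 was 104, 228, 159 and 82.3 CPM, 2.20-fold (1.47 to 3.36) higher with ventilation in young libraries, whereas Col6a3 was 213, 123, 198 and 179 CPM, 1.73-fold (1.17 to 2.59) lower, and Col14a1 was 294, 72.1, 198 and 119.6 CPM, 4.08-fold (2.60 to 6.65) lower. Col5a2 there was 137, 120.2, 179 and 344 CPM, with fewer than 100 UMIs over the libraries of either age. In smooth muscle Col1a2 was 428, 305, 335 and 256 CPM, with ratios of 0.712 (0.595 to 0.850) and 0.764 (0.608 to 0.955). Col5a1 there was 87.3, 46.6, 50.7 and 37.2 CPM, 1.87-fold (1.21 to 2.98) lower in young libraries. Col3a1 in the same cells was 374, 308, 332 and 186 CPM, 1.21-fold (1.01 to 1.46) and 1.79-fold (1.39 to 2.31) lower, and Col5a2 was 191, 125, 160.2 and 109 CPM, 1.53-fold (1.16 to 2.03) and 1.46-fold (1.04 to 2.08) lower. In pericytes the chains of type I went in opposite directions. Their Col1a1 was 113, 259, 100.1 and 137 CPM, 2.28-fold (1.69 to 3.11) higher in young ventilated cells, whereas Col1a2 was 313, 198, 234 and 172 CPM, 1.59-fold (1.26 to 2.005) lower. In aged libraries the ratios were 1.37 (0.925 to 2.03) for Col1a1 and 0.732 (0.538 to 0.989) for Col1a2.

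Among the other collagens, the type VI chains separated from each other in alveolar fibroblasts. Col6a3 was 271, 135, 259 and 134 CPM, 2.01-fold (1.83 to 2.20) and 1.93-fold (1.72 to 2.16) lower with ventilation, while Col6a1 was 240.4, 208, 206 and 182 CPM, 1.16-fold (1.06 to 1.26) and 1.13-fold (1.01 to 1.26) lower. Col6a2 was 166, 151, 154 and 136 CPM, with ratios of 0.905 (0.816 to 1.004) and 0.880 (0.774 to 0.9999). In adventitial fibroblasts Col6a3 was 321, 339.8, 249.6 and 306 CPM, with ratios of 1.06 (0.916 to 1.22) and 1.22 (1.02 to 1.47). In smooth muscle the chains also differed from each other, since Col6a3 was 166, 99.9, 98.8 and 164 CPM, Col6a1 97.6, 98.3, 123 and 48.1 CPM and Col6a2 103, 49.97, 89.5 and 85.4 CPM. With ventilation Col6a3 was there 1.66-fold (1.23 to 2.28) lower in young and 1.66-fold (1.19 to 2.32) higher in aged libraries.

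Col12a1, which bridges fibrils, was 13.1, 78.7, 23.4 and 38.3 CPM in alveolar fibroblasts. The young ventilated library was the highest, 6.01-fold (4.43 to 8.33) above its control, against 1.64-fold (1.22 to 2.21) in aged libraries. One cell gave 30.0% of the aged nonventilated and 21.5% of the aged ventilated UMIs. In aerocytes Col12a1 was lower with ventilation, at 62.5, 18.6, 85.3 and 26.7 CPM, or 3.37-fold (2.16 to 5.41) and 3.19-fold (2.03 to 5.17) lower. Col13a1, found at cell contacts with the matrix, was 367, 561, 326 and 392 CPM in alveolar fibroblasts, 1.53-fold (1.43 to 1.63) higher with ventilation in young and 1.20-fold (1.11 to 1.31) higher in aged libraries. Col23a1 there was 279.7, 374, 197 and 216 CPM, with ratios of 1.34 (1.24 to 1.44) and 1.10 (0.986 to 1.22). In adventitial fibroblasts Col23a1 was 113, 104, 162 and 37.04 CPM and Col13a1 was 218, 199, 228 and 113 CPM, both lowest in the aged ventilated library. With both fibroblast classes joined, the young ratios were 4.18 (3.37 to 5.23) for Col12a1, 1.68 (1.59 to 1.78) for Col13a1 and 0.540 (0.501 to 0.582) for Col6a3.

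Among members with at least 100 UMIs over the 2 libraries compared, Col18a1 in capillary cells had the widest ratios. It passed that minimum through the ventilated libraries alone, so a wide ratio is tied to how it was picked. Over the capillary clusters 0, 1 and 11 it was 2.19, 37.2, 5.13 and 83.5 CPM, from 10, 199, 23 and 296 UMIs. The ventilated libraries were 16.99-fold (9.04 to 35.97) and 16.3-fold (10.6 to 26.1) higher. Aerocytes had 4.56, 90.1, 2.13 and 51.4 CPM, from 7, 126, 2 and 50 UMIs, or 19.8-fold (9.31 to 50.1) and 24.1-fold (6.34 to 205) higher. The aged aerocyte libraries together fell short of that minimum. At 2000 UMIs per cell, a Col18a1 UMI was found in 0.697, 4.57, 0.600 and 10.1% of the capillary clusters (unthinned 1.09, 8.57, 2.81 and 16.7%) and 0, 0.350, 0 and 0% of leukocytes (unthinned 0.402, 0.436, 0.103 and 0.637%). In venous endothelium it was 21.5, 24.4, 17.99 and 114 CPM, with ratios of 1.14 (0.575 to 2.22) in young and 6.32 (3.73 to 11.4) in aged libraries. In smooth muscle, its highest class, Col18a1 was 270.1, 371, 323 and 355 CPM, or 1.38-fold (1.14 to 1.65) and 1.10-fold (0.894 to 1.34) higher, whereas in alveolar fibroblasts it was 64.9, 41.8, 91.6 and 54.6 CPM, 1.55-fold (1.30 to 1.86) and 1.68-fold (1.39 to 2.02) lower. Adventitial fibroblasts had 49.7, 77.3, 52.9 and 50.01 CPM.

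Col15a1, the nearest relative of Col18a1, was 21.5, 35.3, 25.9 and 72.9 CPM in venous endothelium, with ratios of 1.64 (0.896 to 3.04) and 2.82 (1.75 to 4.71). Col8a1 was 379, 419.7, 455 and 455 CPM in smooth muscle, where the ratios were 1.11 (0.939 to 1.30) and 0.9999 (0.837 to 1.19), and 1 cell gave 40.9% of the aged ventilated UMIs. In pericytes it was 427, 286, 370.3 and 149 CPM, 1.49-fold (1.23 to 1.81) and 2.48-fold (1.85 to 3.36) lower. Col14a1 in adventitial fibroblasts was 231, 174, 149 and 209 CPM, and in smooth muscle 93.5, 36.6, 48.1 and 24.1 CPM, 2.55-fold (1.59 to 4.27) lower in young libraries. Col16a1 in alveolar fibroblasts was 24.2, 20.8, 32.4 and 19.97 CPM, with ratios of 0.860 (0.651 to 1.14) and 0.616 (0.450 to 0.841), and in adventitial fibroblasts 46.9, 30.7, 53.5 and 48.2 CPM. The transmembrane Col17a1 was 12.2, 2.19, 17.7 and 3.99 CPM in alveolar fibroblasts, from 42, 15, 53 and 15 UMIs. Lymphatic Col23a1 was 558, 599, 874 and 1025 CPM, with ventilation ratios of 1.07 (0.855 to 1.35) and 1.17 (0.953 to 1.44).

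**Figure D5:**
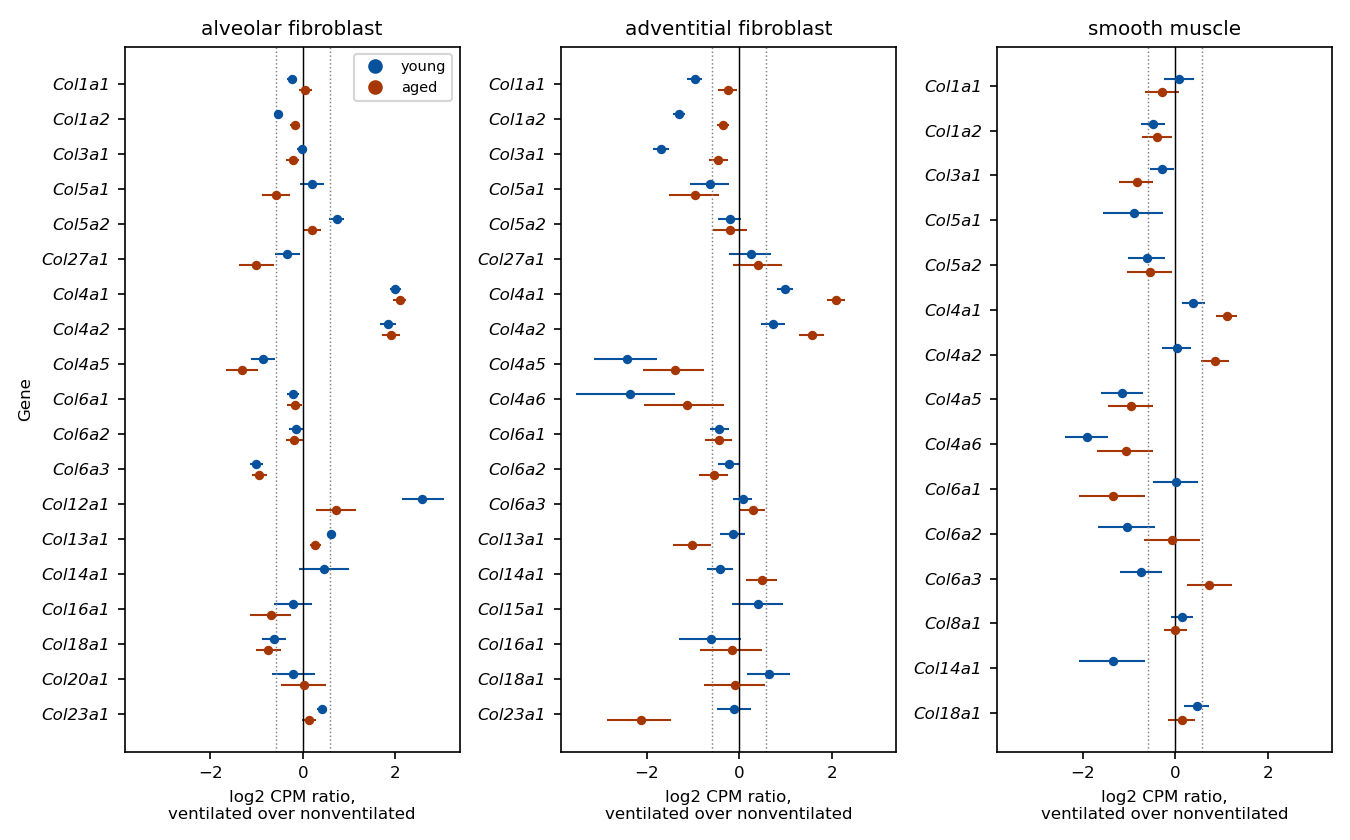
log2 ratio of ventilated over nonventilated CPM for each collagen with at least 100 UMIs over the 2 libraries, in alveolar fibroblasts, adventitial fibroblasts and smooth muscle. Points are young (blue) and aged (brown) with 95% counting intervals, and dotted lines mark 1.5-fold. Col4a1 and Col4a2 lie to the right in fibroblasts of both ages, and Col4a5 lies to the left in all 3 classes.

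Counts set the members of each compared class against all genes. A gene was counted as higher or lower where it had at least 100 UMIs over the 2 libraries and differed by 1.5-fold or more, with no test. A gene that reached this minimum in only 1 of the 2 libraries was in part picked for its difference. That holds for members and all genes alike, and for Col12a1 in alveolar fibroblasts. In alveolar fibroblasts of young mice 5 of 19 members were higher with ventilation and 3 lower, where 19.5% and 26.9% of all 8361 genes were. In aged libraries 3 of 18 were higher and 5 lower, against 13% and 17.9% of all genes. The median log2 ratio of the members was -0.14 in young and -0.17 in aged libraries, beside -0.10 and -0.04 for all genes. The shares of members were near those of all genes, so the members as a whole did not stand apart in this class. Where all genes have a median away from 0, the ratios of the members can be read against it, and it passed 0.1 on the log2 scale in the capillary clusters, at -0.21 in young and -0.10 in aged libraries. It also did so in the young libraries for aerocytes, at -0.14, the joined fibroblasts, at -0.13, alveolar fibroblasts, at -0.10, and myofibroblasts, at 0.10.

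In adventitial fibroblasts 3 of 19 members were higher and 7 lower in young libraries, against 24% and 30.3% of all genes. In aged libraries 2 of 18 were higher and 5 lower, against 17.7% and 23.8%. In smooth muscle 0 of 15 were higher and 7 lower in young libraries, against 14.8% and 14.4%, and 3 and 4 of 13 in aged libraries, against 9.77% and 17.6%. The median member in young smooth muscle was -0.49 on the log2 scale, beside 0.02 for all genes.

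In pericytes 1 of 10 members was higher and 1 lower in young libraries, against 13.8% and 9.49%, and 0 and 1 of 5 in aged libraries, against 9.13% and 11.8%. In the capillary clusters 0, 1 and 11 only 3 members in young and 4 in aged libraries had enough UMIs, and 3 were higher at each age (Col4a1, Col4a2 and Col18a1), against 12.6% and 10.5% of all genes. None was lower, against 28.8% and 20.3%. Members that pass this minimum through 1 ventilated library alone, such as Col18a1, had to differ. In alveolar type I cells 0 of 6 were higher and 2 lower in young libraries, against 19.4% and 16.3%, and 2 and 0 of 6 in aged libraries, against 14.7% and 11.9%.

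In young myofibroblasts 3 of 8 members were higher (Col4a1, Col4a2 and Col12a1) and 5 lower, against 29.3% and 23.3% of all genes. The median log2 ratio of these members was -1.41, beside 0.10 for all genes. In aged myofibroblasts 2 members had enough UMIs, of which Col4a1 was higher and Col3a1 lower, against 13.4% and 21.3%. In aerocytes 3 of 4 were higher and 1 lower in young libraries, against 17.9% and 26.7%, and 2 and 1 of 3 in aged libraries, against 14.6% and 17.9%. Venous endothelium had 2 of 3 higher in young and 4 of 4 in aged libraries, against 18.9% and 15.1%. None was lower there, against 20% and 16.9%. Col18a1 in young aerocytes and in aged venous endothelium also passed the minimum through the ventilated library alone, so it had to differ. Col15a1 in aged venous endothelium drew most of its UMIs from the ventilated library. Lymphatic endothelium had 0 of 2 members higher in young libraries, against 16.8%, and 1 of 2 (Col4a1) in aged libraries, against 13.5%. None was lower, against 14.3% and 13.4%.

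Age alone gave few differences among the collagens of nonventilated alveolar fibroblasts and capillaries. In alveolar fibroblasts 1 of 18 members was higher in the aged library and 0 were lower, against 3.05% and 2.49% of all genes. The 1 was Col12a1, at 1.79-fold (1.21 to 2.66). Col12a1 rests there on 45 and 70 UMIs, and 1 cell gave 30.0% of the aged UMIs. Its direction turned with the UMI limit set over the barcodes left by the other filters (log2 ratio -0.35) and as a mean of per-cell CPM (-0.08). In the capillary clusters 0, 1 and 11, 0 of 2 members were higher and 0 lower, against 3.07% and 2.86%. The ratios of aged over young were 1.04 (0.987 to 1.10) for Col4a1 and 1.002 (0.936 to 1.07) for Col4a2 there.

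In nonventilated adventitial fibroblasts the fibrillar sum was 1.63-fold (1.57 to 1.68) lower in the aged library. That library was 2.12-fold (1.97 to 2.28) lower in Col3a1, 1.69-fold (1.56 to 1.82) lower in Col1a1, 1.61-fold (1.40 to 1.86) lower in Col5a2 and 1.55-fold (1.33 to 1.81) lower in Col14a1. Col1a2 was 1.47-fold (1.39 to 1.55) lower, and Col5a1 had a ratio of 1.08 (0.893 to 1.30). For the joined fibroblasts the fibrillar sum was 1.45-fold (1.41 to 1.49) lower, with Col3a1 at 1.74-fold (1.65 to 1.84). At resolution 2.0 the sum was 1.85-fold lower in adventitial and 1.31-fold lower in alveolar fibroblasts. In aged smooth muscle without ventilation Col4a6 was 2.01-fold (1.60 to 2.53) lower, Col5a1 1.72-fold (1.16 to 2.59), Col6a3 1.68-fold (1.27 to 2.25) and Col14a1 1.95-fold (1.31 to 2.95). Lymphatic Col23a1 was 1.57-fold (1.26 to 1.95) higher in the aged nonventilated library, where 1 cell gave 18.8% of the UMIs.

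Between the ventilated libraries, 0 of 19 members were higher and 3 lower in aged alveolar fibroblasts, against 10.2% and 8.65% of all genes. The lower ones were Col12a1 at 2.05-fold (1.70 to 2.48), Col23a1 at 1.74-fold (1.60 to 1.88) and Col27a1 at 1.73-fold (1.37 to 2.19). Among members tested in the capillary clusters 0, 1 and 11, 1 of 4 was higher, Col18a1 at 2.24-fold (1.87 to 2.70), and 0 were lower, against 5.88% and 5.06%. In alveolar type I cells the aged ventilated library was above the young one in Col4a1 by 1.63-fold (1.45 to 1.83), Col4a3 by 1.62-fold (1.42 to 1.84) and Col4a4 by 1.64-fold (1.42 to 1.89). In venous endothelium Col18a1 was 4.65-fold (2.82 to 8.11) and Col15a1 2.07-fold (1.31 to 3.36) higher. In aerocytes Col18a1 was 1.75-fold (1.25 to 2.48) lower, and lymphatic Col23a1 was 1.71-fold (1.38 to 2.13) higher. In adventitial fibroblasts the aged ventilated library was 1.60-fold (1.23 to 2.10) lower in Col5a2 and 1.52-fold (1.20 to 1.95) lower in Col6a2. Col13a1 and Col23a1 were also lower there by 1.5-fold or more, while Col4a1 and Col4a2 were higher by that much. In smooth muscle the aged ventilated library was higher by 1.5-fold or more in Col4a1, Col4a2 and Col6a3, and lower in Col3a1. In pericytes Col1a1 was 1.88-fold (1.39 to 2.59) lower, Col3a1 2.93-fold (1.80 to 5.01) lower and Col8a1 1.91-fold (1.43 to 2.60) lower. These comparisons share libraries with those above, so none is independent of the others.

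The genes that modify, export, trim, crosslink and bind collagen were taken from a list of 48, all of them in the counts. In young alveolar fibroblasts 36 had enough UMIs, of which 12 were higher and 12 lower with ventilation, and in aged ones 8 and 7 of 33. Of all genes 19.5% were higher and 26.9% lower in young libraries, and 13% and 17.9% in aged ones. The median log2 ratios of the list were -0.07 and 0.05, beside -0.10 and -0.04 for all genes. For the capillary clusters 0, 1 and 11 the counts were 2 and 2 of 19 in young and 2 and 2 of 17 in aged libraries, against 12.6% and 28.8% of all genes in young and 10.5% and 20.3% in aged libraries. In young myofibroblasts 0 of 11 were higher and 8 lower, against 29.3% and 23.3% of all genes. Prelp, Pcolce2, Lum, Sparc, Aspn, Ogn and Bgn were lower there by more than 2-fold. In aged myofibroblasts 1 of 6 was higher and 4 lower, against 13.4% and 21.3%, and Ddr2, Lum and Aspn were lower by more than 2-fold.

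Lox, which crosslinks fibrillar collagen, was 161, 412, 183 and 567 CPM in alveolar fibroblasts, 2.56-fold (2.34 to 2.81) and 3.09-fold (2.82 to 3.41) higher with ventilation. It was also among the genes leading cluster 2, so this value is a description of that cluster. In adventitial fibroblasts Lox was 108, 334, 139 and 270.4 CPM, 3.09-fold (2.58 to 3.70) and 1.95-fold (1.58 to 2.41) higher. Plod3, which hydroxylates and glycosylates collagen lysines, was 23.7, 55.1, 26.8 and 49.8 CPM in the joined fibroblasts, 2.33-fold (1.91 to 2.85) and 1.86-fold (1.48 to 2.33) higher. Loxl1, a crosslinker of elastic fibers, was 173, 339.8, 186 and 379 CPM in smooth muscle, 1.96-fold (1.59 to 2.42) and 2.04-fold (1.62 to 2.57) higher.

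Several genes of the same list were lower. Colgalt2, a collagen galactosyltransferase, was 52.96, 5.56, 51.1 and 9.58 CPM in alveolar fibroblasts, 9.53-fold (6.69 to 13.9) and 5.33-fold (3.69 to 7.90) lower with ventilation. Pcolce2, an enhancer of procollagen trimming, was 1194, 527, 1015 and 654 CPM in the joined fibroblasts, or 2.27-fold (2.18 to 2.36) and 1.55-fold (1.48 to 1.63) lower. Ogn, a small proteoglycan of the matrix, was 1785, 885, 1794 and 1106 CPM, or 2.02-fold (1.96 to 2.08) and 1.62-fold (1.57 to 1.68) lower, and P3h4, which takes part in lysine hydroxylation, was 43.1, 18.7, 36.8 and 19.6 CPM, or 2.30-fold (1.87 to 2.86) and 1.88-fold (1.44 to 2.47) lower. Ddr1, a collagen receptor kinase, was 28.2, 9.93, 29.2 and 9.78 CPM, or 2.84-fold (2.15 to 3.79) and 2.98-fold (2.10 to 4.32) lower. Dcn, which binds fibrils, reversed with the division of fibroblasts, at 2.10-fold (1.85 to 2.38) and 3.60-fold (2.95 to 4.41) higher in the alveolar class and 2.49-fold (2.39 to 2.59) and 1.37-fold (1.31 to 1.43) lower in the joined one. Dcn was the leading gene of the adventitial cluster.

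Further genes of the list passed 2-fold in single classes or ages. Serpinh1, the collagen chaperone HSP47, was 433, 617, 333 and 739 CPM in adventitial fibroblasts, 1.43-fold (1.28 to 1.59) and 2.22-fold (1.95 to 2.53) higher. Adamts2, a procollagen amino-propeptidase, was 115, 231, 120.0 and 165 CPM in alveolar fibroblasts and Adamts3, a relative with the same role, was 40.2, 25.4, 25.7 and 66.3 CPM. Adamts2 was highest in the young and Adamts3 in the aged ventilated library. Itga2, a collagen-binding integrin chain, was 1.46, 16.7, 1.67 and 3.46 CPM there and 206, 875, 299.6 and 576 CPM in aerocytes, 4.25-fold (3.75 to 4.82) and 1.92-fold (1.66 to 2.23) higher. Itga1, another collagen-binding integrin chain, was 1621, 783, 1621 and 859 CPM in the capillary clusters 0, 1 and 11, 2.07-fold (1.99 to 2.15) and 1.89-fold (1.81 to 1.97) lower, and 443, 166, 351 and 227 CPM in aerocytes. In aerocytes these integrin chains thus had opposite directions. Plod2, a lysyl hydroxylase, was 37.5, 17.02, 50.2 and 18.9 CPM in the capillary clusters, 2.20-fold (1.70 to 2.87) and 2.65-fold (2.01 to 3.54) lower, and Tll1, a procollagen carboxy-propeptidase, was 39.01, 59.1, 18.9 and 42.9 CPM. Colgalt2 in aerocytes was 54.1, 16.4, 39.5 and 18.5 CPM and P4ha2, a subunit of prolyl hydroxylase, 18.9, 34.3, 19.2 and 72 CPM. In smooth muscle P4ha1, another such subunit, was 106, 53.3, 117 and 50.3 CPM, Aspn 208, 159.9, 242 and 91.9 CPM, Ogn 371, 147, 445 and 239 CPM and Pcolce2 126, 59.96, 33.4 and 32.8 CPM. The first 3 of these were lower in the ventilated library of each age. Fmod, a proteoglycan of fibrils, in adventitial fibroblasts was 33.5, 89.6, 35.7 and 38.9 CPM and Lum, another, 50.2, 53.98, 18.98 and 92.6 CPM. Fmod was highest in the young and Lum in the aged ventilated library.

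Ratios between partner chains of 1 molecule were formed from UMIs within a class and library. Col4a1 to Col4a2 ranged from 0.914 to 2.52 over 11 classes, with a median of 1.57. In pericytes it was 1.30, 1.37, 1.35 and 1.41, in the capillary clusters 1.56, 1.42, 1.63 and 1.48 and in alveolar fibroblasts 1.81, 2.03, 1.85 and 2.11. In alveolar type I cells it was 0.918 (0.781 to 1.08), 1.07 (0.954 to 1.21), 0.917 (0.782 to 1.08), 1.46 (1.28 to 1.67), lowest in the nonventilated libraries and highest in the aged ventilated library. In adventitial fibroblasts it was 2.07, 2.49, 1.75 and 2.52.

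Col1a1 to Col1a2 ranged from 0.361 to 1.31. Both ends of that range were pericytes, at 0.361 (0.264 to 0.488), 1.31 (1.04 to 1.65), 0.427 (0.304 to 0.594), 0.800 (0.553 to 1.15), with the young ventilated library apart from both nonventilated libraries beyond counting error. In alveolar fibroblasts the ratio was 0.487, 0.605, 0.552 and 0.643 and in smooth muscle 0.490, 0.727, 0.733 and 0.786. Col4a3 to Col4a4 in type I cells was 1, 1.26, 1.01 and 1.24, and Col4a5 to Col4a6 was 0.707, 1.20, 1.46 and 1.58 in smooth muscle against 7.65, 12.05, 4.58 and 9.71 in type I cells. Col6a1 to Col6a2 was 1.44, 1.38, 1.34 and 1.34 in alveolar fibroblasts.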

How the data were processed

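The authors counted UMIs per gene and cell with Cell Ranger 7.0.0 on the mouse genome mm10, by the submitters' processing notes, and deposited 1 filtered count matrix per library. The deposited counts were used as given, and barcodes outside those matrices were not analysed here. Barcodes were kept where they held 200 to 5000 genes, no more than 10% of their UMIs from mitochondrial genes, and a UMI count up to the 93rd percentile. They were log-normalized and clustered together in Seurat 5.3.0 with R 4.3.3 on 2000 variable genes without collagens, 37 principal components and a resolution of 1.0. The filters and the number of components follow the methods of the study, and the resolution is finer than its 0.18. Clusters were named by marker lists, with at least 3 markers detected in at least 20% of cells. A cluster was called shallow where its median UMI count was under 1/3 of the median of its libraries. No doublet caller was run beyond the upper limits on UMIs and genes.

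UMIs were summed per class and library, divided by all UMIs of that class and library, and given as CPM with exact Poisson 95% intervals. Ratios carry exact conditional binomial 95% intervals (scipy 1.17.1). The script was tested on simulated counts. With 1 library of 3 pooled mice per group there was no test. A feature was counted as past the fold with at least 100 UMIs over both libraries and a ratio of 1.5 or more either way. Per class the text names the 5 members of highest mean CPM, each member past the fold and each member highest in that class, and of the 48 collagen-processing genes those past 2-fold in fibroblasts, pericytes, smooth muscle and capillary classes. The members and lists were chosen with earlier results of these data known. Alternatives covered the filters, the resolution, thinning, per-cell means, centring, the UMI minimum, the fold and mixed cells. Joining the fibroblast classes and leaving out shallow clusters were added after the data were seen.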

Additional observations from a re-analysis of the deposited data

Results flagged for a closer look

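A collagen was higher with ventilation at 1 age and lower at the other, with at least 100 UMIs at each age and both 95% counting intervals clear of 1, in 3 cases. Each difference rests on 1 library per group and was not tested. Col14a1 in adventitial fibroblasts had a log2 ratio of -0.41 at the young and 0.49 at the older age, a difference of 0.90 (aged minus young), from 484, 142, 259 and 113 UMIs. At resolution 2.0, where the class held fewer nonventilated cells, Col14a1 was lower with ventilation at both ages, 2.76-fold in young and 1.57-fold in aged libraries. Col6a3 in smooth muscle had log2 ratios of -0.73 and 0.73, a difference of 1.47, and 1 cell gave 21.3% of the aged ventilated UMIs. Col27a1 in interstitial macrophages had log2 ratios of 1.56 and -0.83, a difference of -2.39. There 22 of 58 young ventilated cells held Col27a1, 1 of them with 25.2% of the UMIs, and 1 cell held 38.5% in the aged nonventilated library.

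The barcodes removed by the filters, which enter no comparison above, also held type IV collagen. Their summed level was 667, 833, 537 and 901 CPM, so the log2 ratio of ventilated over nonventilated was 0.32 in young and 0.75 in aged libraries. In the kept cells the sum was 587, 1035, 528 and 916 CPM. The difference was not tested.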

How the results depend on the processing

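No paired analysis was possible because each group was 1 pooled library. Of 2052 values of 168 results under the alternatives, 1839 moved by less than the counting interval, or for counts of members stayed within 1.5 times, 210 moved further and 3 changed sign. Col4a1 stayed higher with ventilation and past 1.5-fold in all 180 values for its 15 differences past that fold (log2 0.61 to 2.18), and Col4a2 in 152 of 156.

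The log2 ratio of ventilated over nonventilated for summed type IV collagens in young alveolar fibroblasts was 1.61. It was 1.70 with a mitochondrial limit of 5%, 1.31 at resolution 2.0, 1.47 as a mean of per-cell CPM, 1.71 centred on the median gene and 1.16 with fibroblasts joined. In aged ones it was 1.68, and 1.42 at resolution 2.0, 1.48 thinned and 1.46 joined. In the capillary clusters 0, 1 and 11 it was 1.14 in young libraries, and 1.19 thinned and 1.35 centred. In aged libraries it was 1.24, and 1.32 thinned and 1.35 centred. For aged over young nonventilated alveolar fibroblasts it was -0.10, and -0.30 as a per-cell mean and -0.24 joined.

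The fibrillar log2 ratio in young alveolar fibroblasts was -0.18. It was -0.12 with a mitochondrial limit of 5%, -0.68 at resolution 2.0, -0.68 as a per-cell mean, -0.33 thinned, -0.07 centred, -0.10 without shallow clusters and -0.93 joined. In aged ones it was -0.14, and -0.22 with the UMI limit set over the barcodes left, -0.43 at resolution 2.0 and -0.52 joined. For aged over young nonventilated it was -0.24, and -0.39 at resolution 2.0, -0.69 as a per-cell mean, -0.45 thinned, -0.16 without shallow clusters and -0.53 joined.

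Of members higher with ventilation in young alveolar fibroblasts there were 5, and 12 with no UMI minimum and 3 past 2-fold. Of lower ones there were 3, and 7 at resolution 2.0, 8 as per-cell means, 6 from 20 UMIs, 10 with no minimum, 1 past 2-fold and 9 joined. In aged ones 3 were higher, and 9 with no minimum. Lower were 5, and 1 thinned, 14 with no minimum, 2 past 2-fold and 9 joined. In the young capillary clusters 3 were higher, and 5 from 20 UMIs and 18 with no minimum, and 0 were lower, and 5 from 20 UMIs and 9 with no minimum. In the aged ones 3 were higher, and 11 with no minimum, and 0 were lower, and 4 from 20 UMIs and 14 with no minimum. The joined counts of lower members were 9 of 22 in young libraries, beside 28.5% of all genes, and 9 of 20 in aged ones, beside 18.6%. For the other alternatives the shares of all genes are not given. Those counts therefore do not tell whether the members moved apart from all genes.

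The log2 ratio of Col5a1 in aged adventitial fibroblasts changed sign, to 0.23, when thinned. That of Col12a1 for age in nonventilated alveolar fibroblasts became -0.35 with the UMI limit over the barcodes left and -0.08 as a per-cell mean. The cause of these changes was not tested. Depth limits the rarer chains, since in the capillary clusters 4 members at most had 100 UMIs over both libraries.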

Other observations

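Alveolar macrophages of aged mice held more Col4a1 and Col4a2 than those of young mice. Col4a1 was 2.90, 4.66, 25.5 and 64.2 CPM in the order used above, from 5, 10, 42 and 58 UMIs in 5, 6, 16 and 16 of 99, 108, 98 and 52 cells. Col4a2 was 1.74, 5.59, 19.4 and 49.8 CPM from 3, 12, 32 and 45 UMIs. In the aged ventilated library 1 cell gave 34.5% of the Col4a1 UMIs. Genes of other cells in the same macrophages were Pecam1 of endothelium at 6.39, 5.12, 17.6 and 3.32 CPM, Cdh5 of endothelium at 0, 6.52, 4.86 and 2.21 CPM, Pdgfra of fibroblasts at 1.16, 1.40, 1.82 and 1.11 CPM, Ager of type I cells at 4.65, 7.45, 7.89 and 9.96 CPM and Sftpc of type II cells at 19.8, 18.2, 52.8 and 28.8 CPM. Cells that held at least 2 UMIs of any of Cdh5, Epcam, Pdgfra or Pdgfrb were then left out, and 64, 68, 79 and 44 cells remained. In these Col4a1 was 3.68, 4.67, 19.2 and 71.8 CPM. Sftpc, by which no cell was left out, was 21.2, 17.1, 53.7 and 32.5 CPM in them. The part of free RNA in these values was not tested.

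Interstitial macrophages and dendritic cells held Col27a1, a fibrillar chain, at 58.1, 172, 67.4 and 37.9 CPM and 45.1, 13.3, 75.1 and 27.8 CPM. Col14a1 was 134, 59.1, 172 and 67.9 CPM in interstitial macrophages, lower in both ventilated libraries, whereas alveolar macrophages had 5.23, 0.466, 10.3 and 12.2 CPM.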
